A study of Mus musculus with 12 samples.

Results

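The genes described here encode the proteins of the cytosolic ribosome, read in tumour antigen-specific CD8 T cells of mice given checkpoint antibodies. They were chosen by name, from symbols that begin with Rpl (large subunit) or Rps (small subunit) followed by a number (alone or with a, x, l or l1 after it) or by the endings a, p0, p1 or p2, which leaves out named pseudogenes and the kinases of the S6 family. In all 85 of the 48709 listed genes matched, 52 of the large subunit and 33 of the small subunit. Of these, 82 were tested by the authors and 3 were not: Rpl3l, Rps12l1 and Rps4l were listed at 0. Among the 85 names, 9 belong to paralogs or retrocopies, these 3 included, and the other 76 are the standard genes (46 large, 30 small). The genes Fau, Rack1, Rpl36al and Rps3a1 also encode or resemble ribosomal proteins but carry other names and were not counted.

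RNA was measured in 12 libraries, 3 in each of 4 arms, from wild-type C57BL/6 mice labelled as postnatal day 91 and injected with TRAMP-C2 cells, which derive from a prostate tumour of a transgenic mouse and grow on transfer. The arms received anti-CTLA-4 alone, anti-PD-1 DANA alone (an antibody whose Fc part carries a mutation that abolishes Fc receptor binding), both antibodies together, called the combination here, or an isotype control antibody. On day 28 the draining lymph nodes were taken, and live cells positive for CD45, CD3, CD8 and Spas-1 and negative for Spas-2 were sorted, Spas-1 being a tumour antigen of TRAMP cells. Each arm is 1 pool from 5 mice that was divided among 3 libraries, so every p-value below measures only the spread between splits of 1 pool, and arm and pool cannot be told apart. The files used here hold group means and comparisons rather than values per library, so no SD is given for a mean.

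Nearly every one of these proteins is present in equal number in a ribosome, so their synthesis has to be matched. Their mRNAs are short, abundant and long-lived, and they begin with an oligopyrimidine tract at the cap, through which mTOR signalling and the RNA-binding protein LARP1 set their translation. Naive T cells keep ribosome production low, and activation through the antigen receptor raises it before cells divide.

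The recovered depth of the 12 libraries lay between 14729713 reads, in an anti-CTLA-4 library, and 42556869 reads, in a library of the combination. The sorted identity was checked with 10 CD8 T cell markers, all detected in all arms, with Cd8b1 at 422 RPKM (reads scaled to gene length and library size) under anti-CTLA-4, 413 RPKM under anti-PD-1 DANA and 338 RPKM under the combination, against 345 RPKM in isotype. None of the 10 was called in any table, but their levels were not alike between arms: under the combination Cd3e had 73.4 RPKM against 133 RPKM in isotype, Trac 198 against 322 RPKM, Cd2 60.6 against 93.2 RPKM and Cd3d 464 against 257 RPKM. Markers of B cells, 10 of 10 detected, summed to 1240 RPKM under anti-CTLA-4, 523 RPKM under anti-PD-1 DANA and 419 RPKM under the combination, against 540 RPKM in isotype. Markers of myeloid cells, of which 8 of 9 were tested and Adgre1 was listed at 0, summed to 108, 75.7 and 3.62 RPKM in the treated arms, in the same order, and to 66.8 RPKM in isotype. Most of that sum was Lyz2. For anti-CTLA-4 in the authors' deposited table, 4 of the 8 lay above 0 and 4 below. Of them 0 were called higher and 3 lower. For anti-PD-1 DANA 1 was called higher and 1 lower, and for the combination 0 and 2. Of the B cell markers 1 was called, higher under anti-CTLA-4. Of 3 CD4 T cell markers 1 was called, also higher there, and Cd4 had 2.48 RPKM against 0.00369 RPKM in isotype. Means near 0 rest on few reads. The part of B, myeloid and CD4 T cells in the ribosomal protein values was not tested.

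On the RPKM scale, ribosomal protein mRNAs took a larger share of the reads in all 3 treated arms than in isotype, and the share was largest for the combination. They made up 6.04% of reads under anti-CTLA-4, 8.16% under anti-PD-1 DANA and 8.55% under the combination, against 5.31% in isotype. The median level of the 82 tested genes was 267, 339 and 370 RPKM in the 3 treated arms, against 210 RPKM in isotype. In RPKM, 43 genes had their highest level of all arms in the combination, 77 of 82 were higher for anti-PD-1 DANA than for anti-CTLA-4, and 46 of 82 were higher for the combination than for anti-PD-1 DANA. The 2 single-antibody arms and the combination differed in another abundant class. The 13 proteins encoded in mitochondrial DNA took 12.6% of reads under anti-CTLA-4, 13.0% under anti-PD-1 DANA and 3.05% under the combination, against 8.33% in isotype. The part of this shift in the ribosomal protein values was not tested. In bulk RNA, a change in the number of cells of a type and a change in RNA per cell cannot be told apart.

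**Figure D1:**
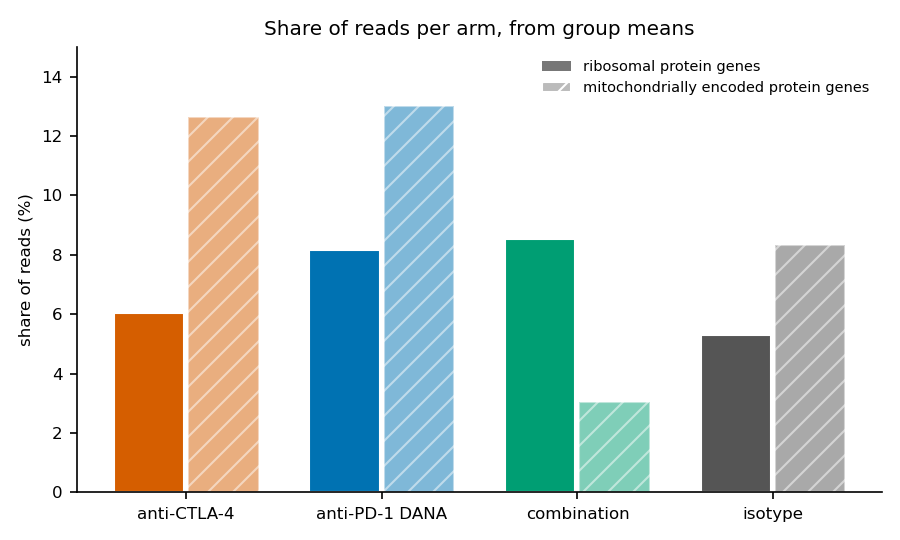
Share of reads in percent (y axis) taken by ribosomal protein genes (solid bars) and by the 13 mitochondrially encoded protein genes (hatched bars) in each arm, computed from group means of 3 libraries, with no error bar because values per library were not analysed here. The solid bar is 8.55% for the combination against 5.31% for isotype, and the hatched bar is 3.05% against 8.33%.

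The levels spanned a wide range, from a stalk protein above all others to variants at a few reads. The 5 genes with the largest deposited mean were Rplp1, Rpsa, Rps27, Rps26 and Rpl36. Rplp1, a protein of the stalk that recruits elongation factors, had 2208 RPKM under anti-CTLA-4, 3373 RPKM under anti-PD-1 DANA and 4860 RPKM under the combination, against 2439 RPKM in isotype. Rpsa, a small subunit protein that also serves as a laminin receptor precursor, had 965, 1156 and 2281 RPKM in the treated arms and 1056 RPKM in isotype. Rps27 had 1376, 1923 and 1825 RPKM in the treated arms and 1039 RPKM in isotype, and Rps26 had 1185, 1397 and 1796 RPKM against 967 RPKM. Rpl36 had 847, 1521 and 1722 RPKM in the treated arms and 931 RPKM in isotype. In these 5 genes anti-PD-1 DANA and the combination were above isotype, whereas anti-CTLA-4 was below it in Rplp1, Rpsa and Rpl36. At the other end, the 5 lowest genes above 0 were Rpl10l, Rpl39l, Rpl6l, Rpl27 and Rpl7l1, 4 of them variants.

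**Figure D2:**
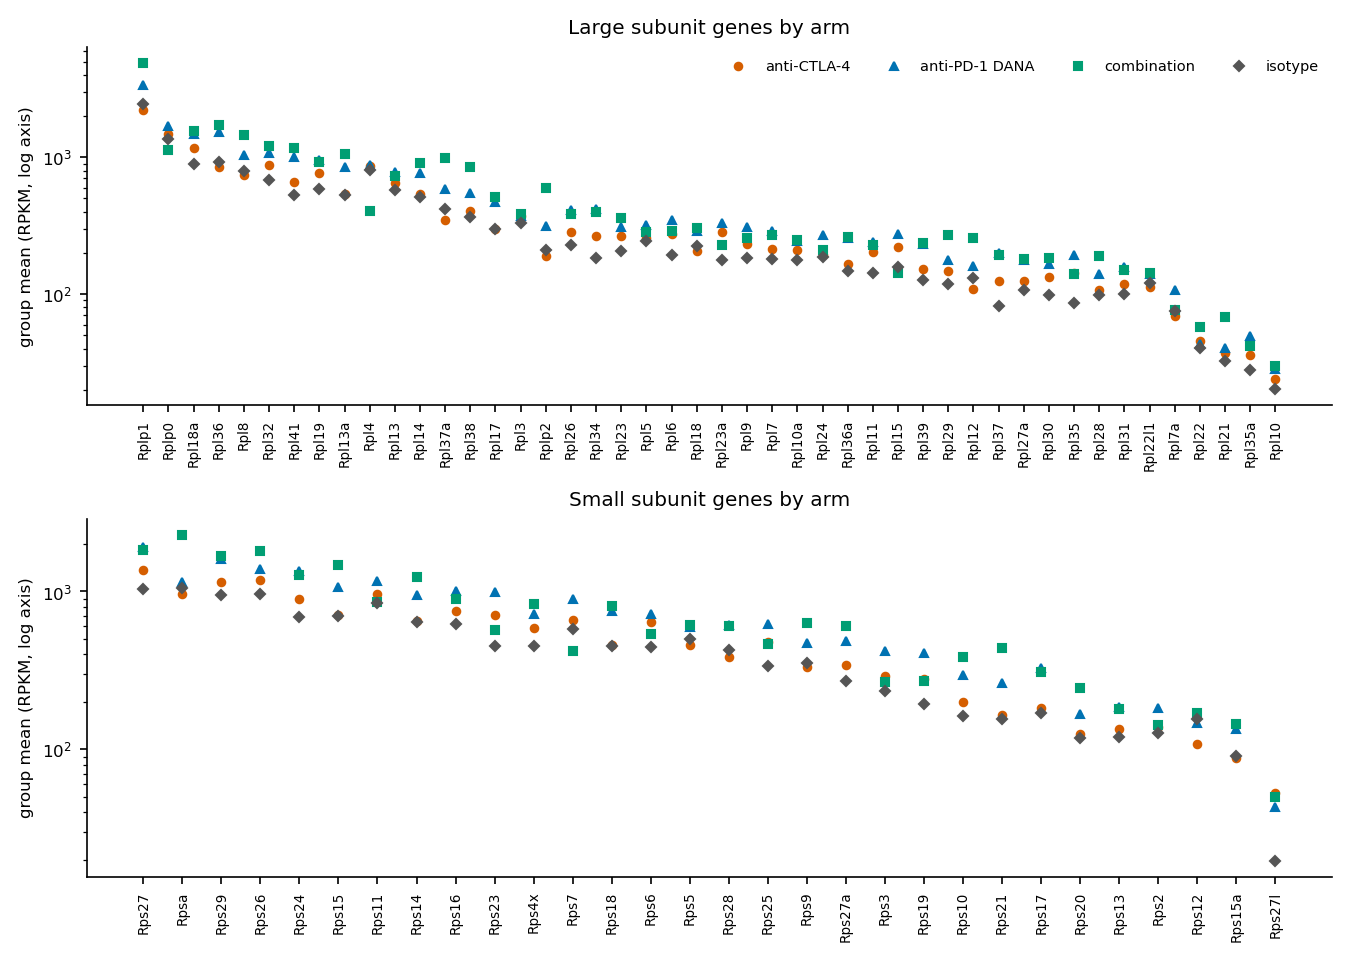
Group mean in RPKM (log axis) of 76 ribosomal protein genes with a mean of 20 RPKM or more over the arms, large subunit above and small subunit below, ordered by level, with a marker per arm (mean of 3 libraries; isotype read from the tables or computed from the treated mean and fold change). Markers of all 3 treated arms lie above isotype for most genes, while Rpl4, Rplp0, Rps7 and Rpl15 have their combination marker lowest.

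Anti-CTLA-4 was compared with isotype first. On the authors' scaling nearly all ribosomal protein genes were below isotype, but 1 passed the test. In the authors' deposited table, 1 of 82 tested genes had a false discovery rate under 0.05, on the low side, while 4.23% of all 17833 tested genes were called, 488 of them higher and 266 (1.49%) lower. With library size scaling the split over all genes was 1188 higher and 179 lower, and with centring on the median tested gene 904 and 191. With either of those scalings no ribosomal protein gene passed. The place of the ribosomal protein genes against the background depended on the adjustment. As deposited, 1 of 82 is below the 4.23% of all tested genes and close to the 1.49% for lower calls alone. Of the 1285 tested genes of 20 RPKM or more, 5 were called higher and 19 lower. Adjusted over the tested genes alone, 11 of 82 (13.4%) passed, all lower, beside 9.06% of all tested genes (3.02% lower). Among genes with a larger mean of 5 RPKM or more 16 of 79 (20.3%) passed, all lower, beside 13.9% (5.66% lower). The median log2 fold change of the 82 genes was -0.76 in the authors' deposited table, beside -0.62 over all tested genes and -0.72 over the 1285 tested genes of 20 RPKM or more, and 80 of the 82 were below 0. Library size scaling turned the direction: the median was 0.18, with 63 of 82 genes above 0, as the authors' scaling lies 0.94 log2 units below the ratio of RPKM in this comparison. At an unadjusted p under 0.05, 30 genes were lower and 0 higher in the authors' deposited table. Of the tested genes of 20 RPKM or more 16% were lower and 1.17% higher. The 16% is 206 genes, with ribosomal protein genes among them.

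Among the low log2 fold changes of genes of 20 RPKM or more in the authors' deposited table were -1.46 for Rps12 and -1.22 for Rpl12. Rps12 had 109 RPKM for anti-CTLA-4 and 156 RPKM for isotype, and its implied SE of 0.82 is wide (false discovery rate 0.771 in the authors' deposited table). Rpl12, at the base of the stalk, had 109 RPKM for anti-CTLA-4 and 132 RPKM for isotype (false discovery rate 0.072 in the authors' deposited table). The highest were 0.48 for Rps27l, -0.22 for Rpl35 and -0.26 for Rpl23a in the authors' deposited table, and none of the 3 passed.

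Anti-PD-1 DANA against isotype gave no called ribosomal protein gene. By the authors' deposited table, 0 of 82 had a false discovery rate under 0.05, beside 3.75% of all tested genes (434 higher and 235 lower; with library size scaling 1051 and 166, with centring 725 and 184), and 2 had an unadjusted p under 0.05 (Rpl39l higher and Rpsa lower), beside 1.56% higher and 13.2% lower among the tested genes of 20 RPKM or more. The median log2 fold change was -0.19 in the authors' deposited table, above the -0.45 of all tested genes and the -0.55 of genes of 20 RPKM or more, with 21 of 82 above 0. On the library size scale the median turned to 0.63 and 79 of 82 were above 0, and centring on the median tested gene also gave a positive median, 0.26. The highest values among genes of 20 RPKM or more in the authors' deposited table were 0.49 for Rpl37, 0.37 for Rpl34 and 0.36 for Rpl35. Rpl34 had 419 RPKM for anti-PD-1 DANA and 184 RPKM for isotype, and Rpl35 had 194 RPKM against 86.1 RPKM. The lowest among genes of 20 RPKM or more in the authors' deposited table were -0.89 for Rps12, -0.72 for Rpl22 and -0.68 for Rpl4. Rpl4 had 882 RPKM for anti-PD-1 DANA and 803 RPKM for isotype, so the sign of its fold change differs from that of its RPKM ratio.

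The combination against isotype was the comparison in which the median ribosomal protein gene lay above isotype on each of the 4 scalings tried. Rplp2, an acidic protein of the stalk, rose, and was the only gene of the 82 to pass the test. By the authors' deposited table, 1 of 82 was called, beside 7.53% of all tested genes (703, or 3.94%, higher and 640 lower). The share of called ribosomal protein genes is thus below that of all tested genes as deposited. Of the 1285 tested genes of 20 RPKM or more, 15 were called higher and 59 lower. At that level the share of higher calls is close to that of the 82. Adjusted over the tested genes alone, 8 of 82 (9.76%) passed, 7 of them higher, beside 12.5% of all tested genes (6.86% higher), and with library size scaling 5 (6.10%) passed, all higher, beside 7.62% (4.23% higher). In higher calls alone, the 7 and 5 genes were 8.54% and 6.10% of the 82, close to those shares of all tested genes. For calls in either direction the order turned with centring on the median tested gene: 23 (28.0%) passed, all higher, beside 8.07% of all tested genes. Of all tested genes, 952 (5.34%) were then called higher and 487 lower. The median log2 fold change was 0.62 in the authors' deposited table, while it was -0.42 over all tested genes and -0.34 over genes of 20 RPKM or more, and 71 of 82 were above 0. The library size scale gave a median of 0.73, and 73 of 82 were above 0. At an unadjusted p under 0.05, 28 genes were higher and 1, Rpl4, lower in the authors' deposited table. Of the tested genes of 20 RPKM or more 6.93% were higher and 15.7% lower. The 6.93% is 89 genes, with ribosomal protein genes among them. The subunits had close medians: it was 0.65 for 46 large subunit genes and 0.72 for 30 small subunit genes in the authors' deposited table, against -0.73 and -0.77 for anti-CTLA-4 and -0.20 and -0.16 for anti-PD-1 DANA. These 3 comparisons share the isotype libraries. In the same comparison the authors' deposited table called 10 of the 13 mitochondrially encoded proteins lower, with a median of -1.38, and the part of that fall in the values above was not tested.

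**Figure D3:**
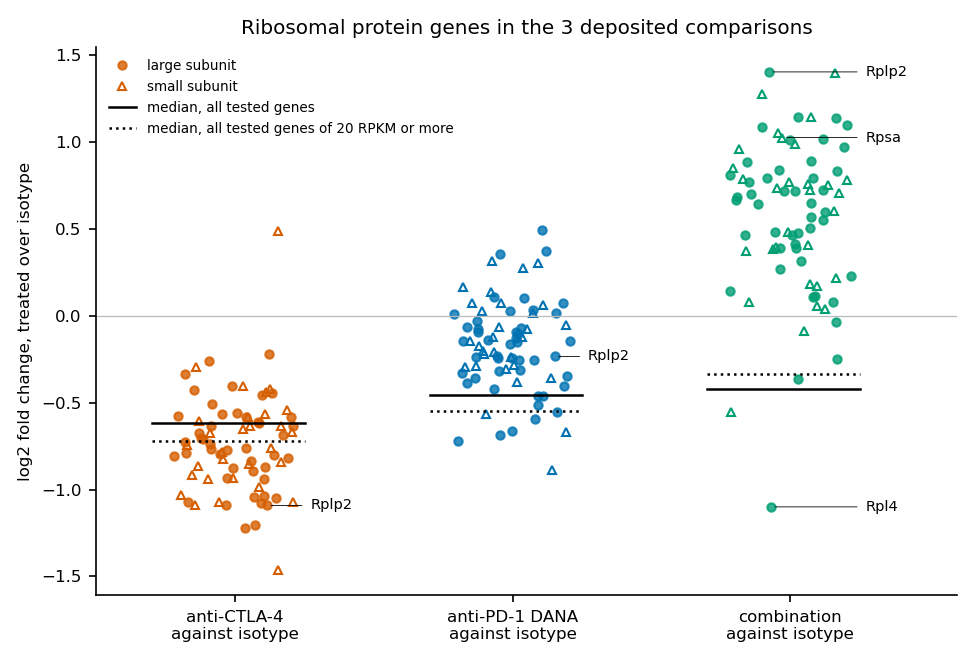
Log2 fold change over isotype (y axis) of 76 ribosomal protein genes with a mean of 20 RPKM or more in the 3 deposited comparisons, with filled circles for the large and open triangles for the small subunit. Solid lines mark the median of all tested genes (-0.62 under anti-CTLA-4, -0.45 under anti-PD-1 DANA, -0.42 under the combination) and dotted lines that of genes of 20 RPKM or more. The combination points lie mostly above 0, with Rplp2 at 1.40 and Rpl4 at -1.10.

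Rplp2 (ENSMUSG00000025508, GRCm38.p5 chr7:141447370-141451585, plus strand) had 599 RPKM for the combination, against 212 RPKM for isotype. Anti-CTLA-4, at 191 RPKM, was near isotype, and anti-PD-1 DANA, at 316 RPKM, lay between. In the authors' deposited table its log2 fold change for the combination was 1.40 with an implied SE of 0.37 and a false discovery rate of 0.0115. It was 1.51 with scaling by library size, and its call held under every alternative except Bonferroni adjustment. Its partner Rplp1 had 4860 RPKM for the combination and 2439 RPKM for isotype, with a log2 fold change of 0.89 ± 0.34 (implied SE) and a false discovery rate of 0.177 in the authors' deposited table. Rplp0, which anchors Rplp1 and Rplp2 on the ribosome, had 1130 RPKM for the combination and 1353 RPKM for isotype, with -0.37 ± 0.34 in the authors' deposited table. The 3 stalk proteins did not lie on the same side of 0 in the combination, whereas in the authors' deposited table for anti-CTLA-4 all 3 were negative, at -0.80 for Rplp0 and -1.09 for both Rplp1 and Rplp2. Scaled by library size, Rplp0 was at 0.14 there and Rplp1 and Rplp2 at -0.14 and -0.15.

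Among genes with a mean of 20 RPKM or more over the arms, the other extremes of the combination were Rps21 and Rps27l on the high side. The variant Rpl7l1, with a mean of 17.0 RPKM over the arms, had the lowest log2 fold change of the 82, -1.36. Rps21, a small subunit protein, had 438 RPKM for the combination, against 156 RPKM for isotype, with a log2 fold change of 1.39 ± 0.44 (implied SE) and a false discovery rate of 0.0568 in the authors' deposited table. Anti-CTLA-4 and anti-PD-1 DANA had 166 and 262 RPKM of Rps21. Rps27l is treated with the variants below. On the low side, Rpl4, a large subunit protein that lines the exit tunnel, had 403 RPKM for the combination, against 803 RPKM for isotype, and 864 and 882 RPKM for anti-CTLA-4 and anti-PD-1 DANA. Its log2 fold change was -1.10 ± 0.38 (implied SE), with p = 0.00419 and a false discovery rate of 0.105 in the authors' deposited table, so it did not pass. Rps7, a small subunit protein, had 422 RPKM for the combination and 575 RPKM for isotype, with -0.55 ± 0.39 in the authors' deposited table. Rpl4, Rps7 and Rplp0 thus had their lowest level of all arms in the combination, while Rplp2, Rps21 and Rpsa had their highest there.

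The promoters of these extremes are shown so that 3 genes whose level was highest in the combination (Rplp2, Rps21 and Rpsa) can be read beside the 3 with the lowest fold change there among genes of 20 RPKM or more (Rpl4, Rps7 and Rplp0). They were picked after their values were seen, and the high side by a looser rule, which 43 genes met. Each runs from 80 bases before to 20 bases from the RefSeq start, GRCm38.p6, 5′ to 3′ on the gene's strand; for Rplp2 that start lies 281 bases from the start of the gene in the files. Capitals mark a run of 5 or more C or T that begins with C and lies wholly within the 10 bases on either side of the start, and the motif CCGGAAG or its complement CTTCCGG.
Rplp2, chr7:141447571-141447670, plus strand: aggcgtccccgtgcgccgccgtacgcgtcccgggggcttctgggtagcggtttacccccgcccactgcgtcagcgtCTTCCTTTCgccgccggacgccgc
Rps21, chr2:180257299-180257398, plus strand: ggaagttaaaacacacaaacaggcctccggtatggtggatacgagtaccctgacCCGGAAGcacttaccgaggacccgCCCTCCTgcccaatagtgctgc
Rpsa, chr9:120127686-120127785, plus strand: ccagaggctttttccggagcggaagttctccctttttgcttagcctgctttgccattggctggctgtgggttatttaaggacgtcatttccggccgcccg
Rpl4, chr9:64173307-64173406, plus strand: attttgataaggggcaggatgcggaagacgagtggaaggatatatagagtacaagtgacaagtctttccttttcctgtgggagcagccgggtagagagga
Rps7, chr12:28635934-28636033, minus strand: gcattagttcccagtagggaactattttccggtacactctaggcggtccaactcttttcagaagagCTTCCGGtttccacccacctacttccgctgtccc
Rplp0, chr5:115559387-115559486, plus strand: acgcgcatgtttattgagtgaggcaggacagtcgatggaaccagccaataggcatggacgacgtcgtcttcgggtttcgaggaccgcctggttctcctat
In these windows Rplp2 and Rps21 hold the pyrimidine run, and Rps21 and Rps7 hold the motif. Rps27l, another extreme of the high side by fold change, is not printed, and its window holds both the run and the motif. Of the 85 genes, 62 have a promoter in the RefSeq table, from 250 bases before to 50 bases after the start. The run was present in 54.8% of them and in 28.8% of the 27025 symbols with a promoter. The motif CCGGAAG, core of the sites bound by ETS family factors, was present on either strand in 40.3% of them and in 9.93% of all symbols. The motif AAGATGG, core of YY1 sites, was present on either strand in 16.1% against 7.28%, the E-box CACGTG in 9.68% against 8.09%, and TATAAA in 11.3% against 15.7%. The run can overlap CTTCCGG, whose first 5 letters are C or T. A match is a description of letters and not a site. Runs that cross the edge of the 10 bases, as in Rpl4 and Rps7, were not counted. The search rests on the RefSeq start, so a missing run does not show that an mRNA lacks the tract.

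Combination minus anti-CTLA-4 set the combination beside the antibody it shares, with isotype cancelling out. Rplp2, Rpl37a and Rpsa rose, and 79 of 82 genes lay above 0. These 3 genes passed at a Benjamini-Hochberg adjusted p under 0.05 over all 17833 genes, computed from the deposited log2 fold changes with an upper bound on the standard error, where 10 genes (0.0561%) passed in all, 6 (0.0336%) of them higher. With library size scaling 3 of all genes were higher and 8 lower, and with centring 4 and 5. From the fold changes and p-values of the authors, the log2 difference was 2.49 ± 0.52 (upper bound of the SE) for Rplp2, with an adjusted p of 0.00503. It was 2.35 ± 0.51 for Rpl37a, with an adjusted p of 0.00946, and 2.10 ± 0.47 for Rpsa, with an adjusted p of 0.0157. At an unadjusted p under 0.05, 50 of 82 genes were higher and 0 lower. Among the 1285 genes of 20 RPKM or more, 7.24% were higher and 2.57% lower. Those 1285 include 77 of the ribosomal protein genes, and the 7.24% is 93 genes. Rpl37a, a zinc finger protein of the large subunit, had 994 RPKM for the combination and 347 RPKM for anti-CTLA-4, with 590 RPKM for anti-PD-1 DANA and 417 RPKM for isotype. Rplp1, at 1.98 ± 0.48, did not pass, with an adjusted p of 0.0602. The median difference of the 82 genes was 1.30, while that of all tested genes was 0.25. Scaling by library size gave a median of 0.46, 66 of 82 genes were above 0, and no ribosomal protein gene passed, while with centring 1 did. At the other end Rpl4 was at -0.26 ± 0.54, Rps7 at 0.21 ± 0.55 and Rplp0 at 0.43 ± 0.48.

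**Figure D4:**
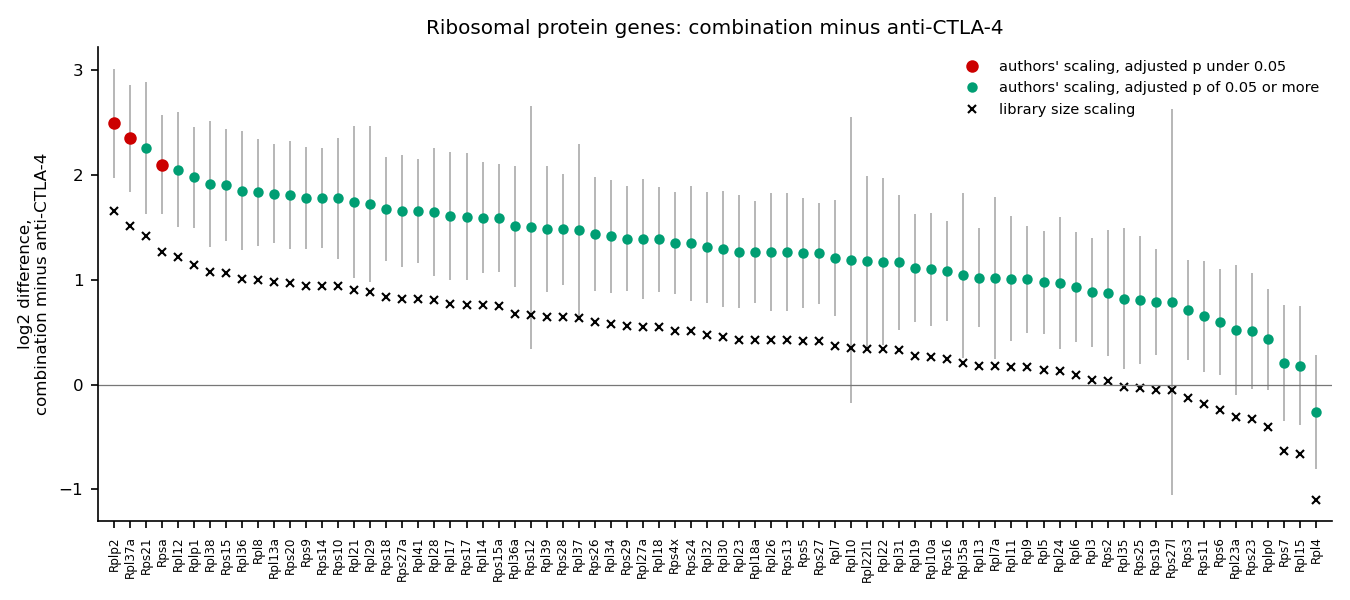
Log2 difference, combination minus anti-CTLA-4 (y axis), of 76 ribosomal protein genes with a mean of 20 RPKM or more, in order of size, with bars of 1 upper-bound SE around the values on the authors' scaling and crosses for library size scaling. Rplp2 (2.49), Rpl37a (2.35) and Rpsa (2.10) are marked as passing, and the crosses run lower by the same amount for every gene.

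Combination minus anti-PD-1 DANA gave no called ribosomal protein gene among 82, beside 7 of 17833 genes (0.0393%), of which 4 were higher and 3 lower (2 and 7 with library size scaling, 3 and 4 with centring). At an unadjusted p under 0.05, 16 of 82 were higher and 0 lower. Among the genes of 20 RPKM or more, 2.57% were higher and 2.8% lower. The 2.57% is 33 genes, with ribosomal protein genes among them. The median difference was 0.75 against 0.17 over all tested genes, and 76 of 82 were above 0. On the library size scale the median was 0.04, with 46 above 0. The smallest adjusted p-values belonged to Rpsa at 1.70 ± 0.47, Rplp2 at 1.64 ± 0.52 and Rpl37a at 1.46 ± 0.51, whose adjusted p was 0.505, 0.566 and 0.650. Anti-CTLA-4 minus anti-PD-1 DANA gave no called gene of any kind (0 of 17833, 0%), with a median of -0.58 for the ribosomal protein genes and -0.08 for all tested genes, and 3 of 82 above 0. At an unadjusted p under 0.05, 0 of 82 were higher and 0 lower, beside 0.156% higher and 0.0778% lower among the genes of 20 RPKM or more. Scaled by library size the median was -0.45 and 5 of 82 were above 0.

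Fold changes for the combination were lower in genes with longer coding sequences. Across the 77 genes of 20 RPKM or more, the Spearman correlation of coding length with the log2 fold change in the authors' deposited table was -0.47 for the combination, -0.39 for anti-PD-1 DANA and -0.10 for anti-CTLA-4. It is a description across genes that share the same libraries. The 10 genes of up to 300 coding bases, such as Rps21 and Rpl37a, had a median log2 fold change of 1.06 for the combination, the 27 of 300 to 450 bases 0.68, the 19 of 450 to 600 bases 0.66, the 18 of 600 to 900 bases 0.42 and the 3 of 900 to 1500 bases (Rpl4 and Rplp0 among them) -0.37. The values of other genes of 20 RPKM or more varied with length too: their medians in these bins were 0.25 (93 genes), -0.05 (169), -0.45 (155), -0.28 (228) and -0.67 (301), and -0.82 above 1500 bases (180). In each of the 5 shared bins the ribosomal protein median was above that of the other genes. Rpsa, at 885 coding bases and a log2 fold change of 1.02 in the authors' deposited table, did not follow the order. The part of length in the ribosomal protein values was not tested.

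**Figure D5:**
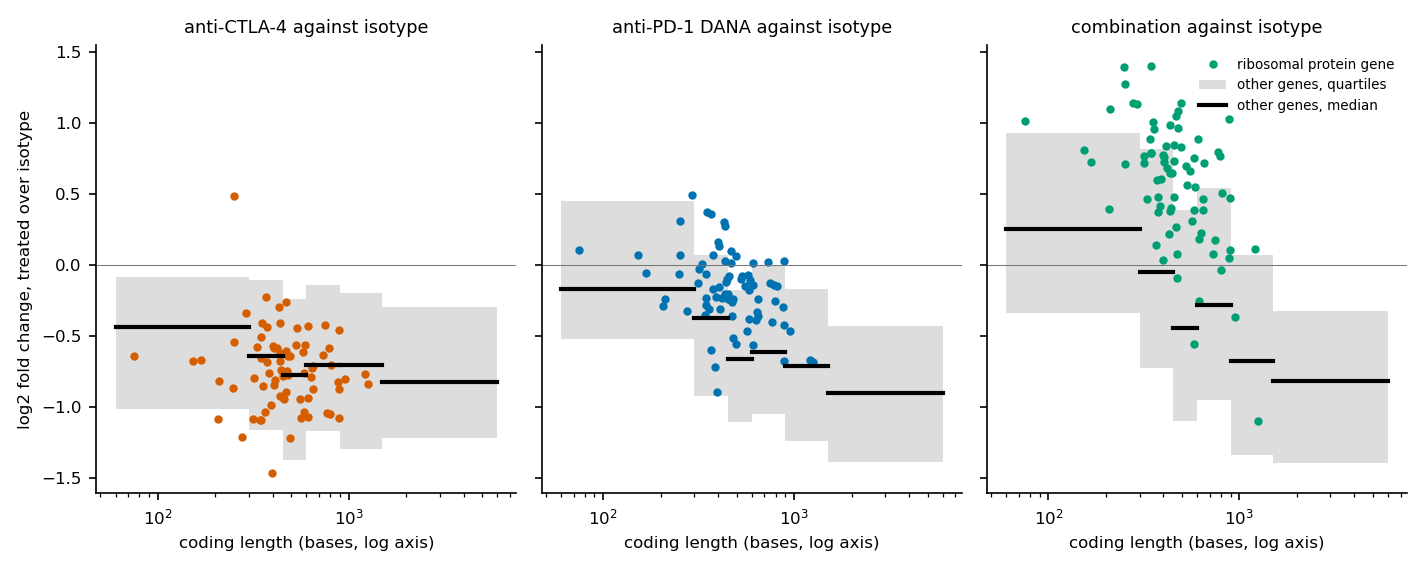
Log2 fold change over isotype (y axis) against coding length in bases (log axis) for 76 ribosomal protein genes of 20 RPKM or more (points), with the median (black line) and quartiles (grey) of other genes of 20 RPKM or more in bins of coding length, for the 3 comparisons. Under the combination most points lie above the other genes' median, and Rpl4, the longest, lies at -1.10.

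Several ribosomal proteins have known roles outside the ribosome, and none of the 8 that follow passed the test in any table. Rpl5 and Rpl11, which bind the p53 regulator Mdm2 when ribosome assembly fails, had 283 and 228 RPKM for the combination, against 245 and 143 RPKM for isotype. Rpl23, which also binds Mdm2, had 357 RPKM for the combination against 207 RPKM for isotype. Rps6, the target of S6 kinases, had 539 RPKM for the combination and 446 RPKM for isotype, with its highest level, 720 RPKM, for anti-PD-1 DANA. Rps3, a partner of NF-kappaB, likewise was highest for anti-PD-1 DANA, at 421 RPKM, against 235 RPKM for isotype. Rpl13a, which silences inflammatory mRNAs in myeloid cells, had 1050 RPKM for the combination and 529 RPKM for isotype, with 0.89 ± 0.33 and a false discovery rate of 0.161 in the authors' deposited table. Rpl38, required for translation of a set of Hox mRNAs, had 847 RPKM for the combination and 369 RPKM for isotype (1.10 ± 0.42, false discovery rate 0.186 in the authors' deposited table). Rps27a, made as a fusion with ubiquitin, had 604 RPKM for the combination and 272 RPKM for isotype (1.05 ± 0.38, false discovery rate 0.121 in the authors' deposited table). Of these 8 genes Rpl13a, Rpl38, Rps27a and Rpl23 had their highest level in the combination.

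No paralog variant passed the test. Rpl22, needed for development of alpha-beta T cells, had 45.8, 43.3 and 57.8 RPKM in the treated arms (in the order used above) and 40.3 RPKM in isotype, while its paralog Rpl22l1 had 114, 141 and 143 RPKM and 121 RPKM. Rpl22l1 was thus above Rpl22 in every arm. Rps27l, a paralog of Rps27 induced by p53, had 53.2, 43.0 and 49.8 RPKM in the treated arms and 19.7 RPKM in isotype, but its log2 fold change in the authors' deposited table, 1.27 for the combination, had an implied SE of 1.30. Rpl7l1, a nucleolar relative of Rpl7, had 20.9, 10.2 and 10.9 RPKM in the treated arms and 25.9 RPKM in isotype, with -2.15 ± 1.21 for anti-PD-1 DANA in the authors' deposited table. Rpl39l, known from male germ cells, had 1.87 RPKM for anti-PD-1 DANA and was listed at 0 in the other arms. Its 149 reads all came from 1 of the 3 anti-PD-1 DANA libraries, and its false discovery rate was 0.268 in the authors' deposited table. Rpl10l, also of germ cells, rested on 1 read in anti-PD-1 DANA and 1 read in isotype. The retrocopy Rpl6l had 0.98, 1.17 and 1.77 RPKM in the treated arms and 3.49 RPKM in isotype.

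Near-identical copies make some levels uncertain, because reads of a gene and its copy can be split between them. Named copies were listed in 277 rows, of which 20 were tested. Copies summed to over 50% of the gene's own level for 4 tested genes (Rpl10, Rpl27, Rpl37 and Rps27) and to over 10% for 7. Rpl10 had 23.9, 28.4 and 29.9 RPKM in the treated arms and 20.3 RPKM in isotype, while its copy Rpl10-ps3 had 823, 927 and 628 RPKM and 612 RPKM. Rpl27, at 25.8, 19.7 and 10.8 RPKM in the treated arms and 13.8 RPKM in isotype, stood in the same relation to its copy. The copy Rpl37rt, at 229, 348 and 349 RPKM in the treated arms and 154 RPKM in isotype, exceeded Rpl37, at 125, 202 and 193 RPKM and 81.8 RPKM. The low place of Rpl10 and Rpl27 in the order of levels is therefore uncertain. Rpl23a had 284 RPKM under anti-CTLA-4 and 177 RPKM in isotype, while its copy Rpl23a-ps3 had 55.6 and 103 RPKM. The place of Rpl23a among the highest fold changes for anti-CTLA-4 is uncertain too.

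Of 3 further genes of ribosomal proteins or their partners under other names, none passed. Fau, a ubiquitin-like fusion with a small subunit protein, had 320 RPKM for the combination and 106 RPKM for isotype (1.49 ± 0.50, false discovery rate 0.0861 in the authors' deposited table), Rack1 had 208 RPKM for the combination and 133 RPKM for isotype, and Rpl36al had 96.9 RPKM for the combination and 89.6 RPKM for isotype. Their median log2 fold change was -1.17 under anti-CTLA-4, -0.29 under anti-PD-1 DANA and 0.57 under the combination. Of 18 elongation factors and other mRNAs with a 5′ oligopyrimidine tract, 2 fell for anti-CTLA-4, where 1.49% of all tested genes were called lower, and none was called elsewhere in the authors' deposited tables. These were Eef1b2, the exchange factor of eEF1A, at 178 RPKM for anti-CTLA-4 against 259 RPKM for isotype (false discovery rate 0.0114 in the authors' deposited table), and Tpt1 at 210 RPKM against 281 RPKM (false discovery rate 0.0215 in the authors' deposited table). Both calls were lost with scaling by library size, with centring on the median tested gene and with Bonferroni adjustment. Eef1a1, the most abundant of the list, had 1058 RPKM for the combination and 1575 RPKM for isotype, with -0.68 ± 0.33 and a false discovery rate of 0.499 in the authors' deposited table.

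Of 40 listed ribosome biogenesis genes, 5 were called higher and 0 lower for anti-CTLA-4 in the authors' deposited tables. For anti-PD-1 DANA 5 were called higher and 0 lower, and for the combination 3 and 1. The 3 comparisons share the isotype libraries. As a list they did not rise under the single antibodies in those tables. There 26 of 40 lay below 0 under anti-CTLA-4 and 27 under anti-PD-1 DANA, with median log2 fold changes of -0.70 and -0.71. Under the combination 18 lay below 0 and the median was 0.35. On the library size scale 25, 23 and 22 lay above 0 in the order used above. Over all tested genes, 2.74% were called higher under anti-CTLA-4 and 2.43% under anti-PD-1 DANA, while the combination had 3.94% higher and 3.59% lower, and these shares also stand beside the calls in the lists that follow. Ltv1, an assembly factor of the small subunit, rose in all 3, at 12.7, 12.6 and 9.98 RPKM in the treated arms against 0.0793 RPKM in isotype. Mrto4, an assembly factor of the stalk region, rose for anti-CTLA-4 and the combination, at 13.1 and 12.3 RPKM, against 0.259 RPKM in isotype. Nmd3, the export adaptor of the large subunit, rose for anti-PD-1 DANA and the combination, at 2.91 and 0.777 RPKM against 0.0165 RPKM, and 3 genes rose under both single antibodies: Nop9 at 4.23 and 2.95 RPKM against 0.0208 RPKM, Rrp1b at 6.05 and 3.81 RPKM against 0.0402 RPKM, and Tsr2 at 4.62 and 7.10 RPKM against 0.0267 RPKM. Nop16 fell for the combination, at 0.176 RPKM against 25.1 RPKM in isotype. Ncl and Fbl, abundant nucleolar proteins, had 21.4 and 40.5 RPKM for the combination and 19.1 and 25.4 RPKM for isotype and were not called. Of 14 RNA polymerase I genes, Polr1b rose for anti-PD-1 DANA, at 4.18 RPKM against 0.0139 RPKM in isotype. Under the combination Cd3eap rose, at 8.06 RPKM against 0.0704 RPKM, and Polr1a fell, at 0.295 RPKM against 7.06 RPKM in isotype. Of 20 regulators of ribosomal protein synthesis, the S6 kinase gene Rps6kb2 rose for anti-PD-1 DANA (9.70 RPKM) and the combination (4.41 RPKM) against 0.0469 RPKM in isotype, and Gabpa, an ETS factor, fell for the combination at 0.229 RPKM against 9.09 RPKM. Isotype means near 0 and treated means near 0 rest on few reads, so no fold is given for these genes. Mtor, Larp1 and Myc, at 0.999, 7.40 and 10.8 RPKM for the combination and 0.347, 3.56 and 25.2 RPKM for isotype, were not called.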

How the data were processed

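RNA from sorted CD8 T cells was amplified from full-length cDNA and sequenced on an Illumina instrument, per the labels' protocols, and the submitters' processing notes name GRCm38.p5 as the build. The authors deposited 3 tables, each treatment against isotype, with the larger group mean (RPKM, unit read from the values), the fold change in log2 and as a signed score (both positive where the treated group is higher), a p-value and a false discovery rate. The sources used here do not give their model. The deposited p-values were adjusted over 48709 listed genes, of which 17833 were tested. Values per library were not analysed here, so the planned count models could not be fitted.

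Computed here (python 3.11.15, pandas 2.3.3, scipy 1.17.1) were: group means of every arm, from the larger mean and the fold change after a shift between the RPKM ratio and the deposited log2 fold change (0.94 under anti-CTLA-4, 0.82 under anti-PD-1 DANA, 0.11 under the combination), an implied SE from the log2 fold change and its p, as a Wald test would give it, differences between treatments with the root of the summed squared SEs as an upper bound, and library sizes and read numbers from the whole-read steps of low means. Isotype means of the 82 genes were read in 2 or 3 tables for 4 genes, taken as the smallest of 3 larger means for 21, and estimated for 57, where 3 estimates differed by a median of 0.0062 log2 units. Lengths came from GENCODE M21 (99.3% of IDs matched) and promoters from RefSeq GRCm38.p6. A call is a false discovery rate under 0.05. Of these steps, only the test of differences between treatments was tried on simulated data. Some items are not reported here. Of the rest, genes were named if called, if among the 5 highest or lowest, if among the 3 largest changes in either direction, if a variant with its parent, or if known outside the ribosome. The genes and lists were chosen with earlier results of these data known.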

Additional observations from a re-analysis of the deposited data

How the results depend on the processing

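No paired analysis was possible because the tables hold no value per library, and for the same reason other normalizations of counts, DESeq2 and leaving out a replicate were not run. The counts of called ribosomal protein genes depend on the adjustment. With adjustment over tested genes they were 11 for anti-CTLA-4 and 8 for the combination, with Bonferroni adjustment 0 and 0, with means of 5 RPKM or more 16 of 79 (beside 13.9% of all such genes) and 14 of 79 (beside 22.1%), with library size scaling 0 and 5, and with centring on the median tested gene 0 and 23. The 16 for anti-CTLA-4 were all lower (20.3% of 79, beside 5.66% of all such genes). Of the 14 for the combination, 13 were higher (16.5% of 79, beside 8.59% of all such genes) and 1 lower (1.27%, beside 13.5%). For anti-PD-1 DANA the counts were 0 under each of these. Over all genes, adjustment over tested genes gave 1616 calls under anti-CTLA-4, 1596 under anti-PD-1 DANA and 2238 under the combination, Bonferroni adjustment 27, 34 and 74 in that order, and library size scaling 1367 for anti-CTLA-4 and 1217 for anti-PD-1 DANA. The median log2 fold change of ribosomal protein genes was 0.18 under anti-CTLA-4 and 0.63 under anti-PD-1 DANA with library size scaling, with centring -0.14, 0.26 and 1.04 in the order above, and with centring on genes of the same level -0.064 under anti-CTLA-4 and 0.36 under anti-PD-1 DANA. Combination minus anti-CTLA-4 gave 48 ribosomal protein genes with equal variances of group means (beside 5.99% of all genes), 0 with library size scaling and 1 with centring, and combination minus anti-PD-1 DANA gave 13 with equal variances (beside 4.21%). Of named genes, Rplp2 for anti-PD-1 DANA turned to 0.58 with library size scaling and 0.22 with centring. The cause of these shifts was not tested beyond the scaling itself. Without the 7 paralog variants, or without all 9 variants (Rpl6l and Rps12l1 added after seeing the data), the counts of calls against isotype were the same. Depth limits the variants: Rpl10l rests on 1 read in an arm.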

Other observations

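The kinases named after Rps6 carry symbols near those of the small subunit genes and were not members. They were looked at after their values had been seen, and the 3 named here, all called, are part of a longer set. Rps6ka1 rose in all 3 treated arms in the authors' deposited tables, at 25.2 RPKM under anti-CTLA-4, 14.4 RPKM under anti-PD-1 DANA and 5.97 RPKM under the combination, against 0.406 RPKM in isotype, with false discovery rates of 0.00356, 0.0146 and 0.0277. Rps6ka5 fell in all 3 in the authors' deposited tables, at 0.127, 0.0086 and 0.0545 RPKM in the treated arms, against 8.13 RPKM for isotype, with false discovery rates of 0.0215, 0.000363 and 0.00807. The 3 comparisons share the isotype libraries. Rps6ka4 fell for the combination, at 0.0424 RPKM against 9.20 RPKM for isotype, with a false discovery rate of 0.00186 in the authors' deposited table. Over all tested genes, 2.74% were called higher and 1.49% lower under anti-CTLA-4. The shares were 2.43% and 1.32% under anti-PD-1 DANA and 3.94% and 3.59% under the combination. Means near 0 in these kinases rest on few reads.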
